A study of Mus musculus with 8 samples.

Results

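The tRNAs that carry alanine and cysteine were represented by 31 of the 964 rows of the deposited small RNA table. They were chosen by name alone, as every row whose name gives a tRNA number followed by Ala or Cys and an anticodon, with no filter on level. The 31 rows were 13 copies of tRNA-Ala-AGC, 4 of tRNA-Ala-CGC, 4 of tRNA-Ala-TGC and 10 of tRNA-Cys-GCA, among 328 tRNA rows. The series holds 4 libraries from wild-type (WT) mice and 4 from iMLL-ENL mice, which carry an inducible form of the leukaemia fusion gene MLL-ENL. All 8 samples were GMLPs, a granulocyte, monocyte and lymphoid progenitor population sorted from bone marrow, and the cells of both groups were kept for 3 days in culture with doxycycline (DOX). The sources used here do not give the age of the mice, the promoter that drives the transgene, the level of the fusion or whether replicates came from separate mice, so a p-value covers only the spread between these libraries, part of which may be technical. The table holds small non-coding RNA, and markers of the sorted cells were not analysed here.

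Transfer RNAs bring amino acids to the ribosome, and isoacceptors are the tRNAs for 1 amino acid that differ in their anticodon. tRNA-Ala-AGC, tRNA-Ala-CGC and tRNA-Ala-TGC together read the alanine codons, and tRNA-Cys-GCA reads both cysteine codons. Under stress the nuclease angiogenin can cut tRNAs in the anticodon loop, and the 5′ fragments of alanine and cysteine tRNAs begin with a run of guanines that lets them form a G-quadruplex, displace the cap-binding initiation complex from mRNA and repress translation. Whole tRNAs and fragments could not be told apart without read lengths, and the sequences of the copies were not used here.

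RefSeq's annotation of GRCm38.p6 lists more genes than the rows analysed here for every isoacceptor of the group except tRNA-Ala-AGC, for which both numbers are 13. Of the 13 tRNA-Ala-AGC genes in RefSeq, 9 lie on chromosome 13 between 21222586 and 23431484. RefSeq lists 9 tRNA-Ala-CGC genes, 5 of them on chromosome X between 136367721 and 136567936, and 11 tRNA-Ala-TGC genes, 7 of them on the same chromosome between 136357602 and 136590436. For tRNA-Cys-GCA it lists 57 genes, the most of the 48 isoacceptors counted in RefSeq, with 49 in a cluster on chromosome 6 between 47978997 and 48363603. The genes of the group are 70 to 73 bases long. The copies in the table were not matched to these positions, because the number in a name is not unique. For 8 of the 31 copies another tRNA row has the same number, as for tRNA1432-CysGCA and tRNA1432-HisGTG.

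Values are RPM, the reads of a row scaled to a library total of 1000000. The totals behind that scale were 5910000 to 9270000 reads, and the 964 rows took 26.0% to 38.4% of them. WT replicate 2 was least like its group, with a mean correlation of 0.908 with its own group over the 633 rows that passed the level filter. The other WT libraries were at 0.955 to 0.968 and the iMLL-ENL libraries at 0.99 to 0.994. Results that this library moves are therefore also given without it.

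Alanine and cysteine tRNAs were a small part of the tRNA reads. All 31 copies together held 0.191% ± 0.037 (SD, n = 4) of the reads of all tRNA rows in WT, and 0.294% ± 0.030 (SD, n = 4) in the iMLL-ENL libraries. By mean RPM over the 8 libraries divided by the mean length of the RefSeq genes, tRNA-Ala-TGC had rank 26, tRNA-Ala-AGC rank 31, tRNA-Cys-GCA rank 38 and tRNA-Ala-CGC rank 42 of the 47 isoacceptors found in both the table and RefSeq. tRNA-Cys-GCA, first of all isoacceptors by RefSeq gene number, was far down the order by reads. Its reads were summed over the 10 rows analysed here, while RefSeq lists 57 genes, so the ranks by genes and by reads may not cover the same genes. Over the 47 isoacceptors, gene number and RPM per base had a Spearman correlation of 0.47 across isoacceptors, which are not independent replicates. Single copies ranged from 11 to 1985 recovered reads in a library, so every copy was above the floor of 3 reads in every library, and 17 of the 31 had a mean under 10 RPM. Such read numbers cover counting error only.

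On the deposited scale the 3 alanine isoacceptors had higher means in iMLL-ENL and the cysteine isoacceptor a lower one. Only tRNA-Ala-CGC passed the test and rose. tRNA-Ala-TGC, tRNA-Ala-AGC and tRNA-Cys-GCA did not pass it, although the groups of tRNA-Cys-GCA did not overlap. Of 265 families of rows with a common name, 23.8% were called higher in iMLL-ENL and 4.53% lower in the same fit, with a median log2 fold change of 0.29. Among the tRNA isoacceptors other than alanine and cysteine, 6 of 44 rose and 8 fell, with a median of 0.03.

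tRNA-Ala-CGC, whose anticodon pairs with the codon GCG, summed to 34.3, 31.6, 40.9 and 37.6 RPM in WT replicates 1 to 4 and to 57.8, 65.1, 50.8 and 55.98 RPM in iMLL-ENL replicates 1 to 4. Every iMLL-ENL library was above every WT library. The means were 36.1 ± 4.0 and 57.4 ± 5.9 RPM (SD, n = 4), a ratio of 1.59. In limma the log2 fold change of the sum was 0.66 ± 0.20 (SE, adjusted p = 0.022). TMM scaling (0.26, adjusted p = 0.29) and quantile normalization (0.36, adjusted p = 0.41) ended the call, as did leaving out WT replicate 1 or any of the iMLL-ENL replicates 1 to 3, where adjusted p reached 0.072. The fold change stayed above 0 under every scaling tried, and without WT replicate 2 it was 0.60 (adjusted p = 0.036).

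tRNA-Cys-GCA summed to 127.7, 101.7, 130.04 and 117 RPM in WT replicates 1 to 4 and to 86.0, 71.4, 96.3 and 100.5 RPM in iMLL-ENL replicates 1 to 4. The groups did not overlap, but the lowest WT library, replicate 2, was only just above the highest iMLL-ENL library. The means were 119 ± 13 and 88.5 ± 13.0 RPM (SD, n = 4), a ratio of 0.743. The log2 fold change of -0.43 ± 0.18 (SE) had an adjusted p of 0.09 in limma and an unadjusted p of 0.032. It lay below 0 under every scaling, and passed the test after TMM scaling (-0.83, adjusted p = 0.0034), where 6.04% of families were higher and 16.2% lower, and after median centring (-0.53, adjusted p = 0.033), where 24.2% were higher and 7.55% lower. It also passed when only the 48 tRNA isoacceptors were fitted together (adjusted p = 0.044), of which 25% were higher and 20.8% lower, an alternative chosen after seeing the data. It was -0.50 (adjusted p = 0.053) without WT replicate 2.

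tRNA-Ala-TGC was the most abundant isoacceptor of the group. Its WT replicates 1 to 4 held 241.7, 133, 299 and 252 RPM, and its iMLL-ENL replicates 273, 293, 288 and 349 RPM. WT replicate 2 was low, and WT replicate 3 lay within the iMLL-ENL range. The means were 231 ± 70 and 301 ± 33 RPM (SD, n = 4), with a log2 fold change of 0.43 ± 0.22 (SE, adjusted p = 0.14 in limma). Without WT replicate 2 the WT mean was 264 ± 30 RPM (n = 3) and the log2 fold change 0.19 (adjusted p = 0.47).

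tRNA-Ala-AGC, whose anticodon adenosine is converted to inosine, held 150.1, 204, 141 and 159 RPM in WT replicates 1 to 4. Its iMLL-ENL replicates 1 to 4 held 161, 174, 162 and 215.5 RPM. The groups overlapped because WT replicate 2 was higher than 3 of the iMLL-ENL libraries. The log2 fold change was 0.13 ± 0.18 (SE, adjusted p = 0.63 in limma) and its sign depended on the scaling, with -0.27 after TMM scaling. It was 0.24 (adjusted p = 0.35) without WT replicate 2. In the plot of isoacceptor sums WT replicate 2 is thus highest of its group for tRNA-Ala-AGC and lowest for the other 3 isoacceptors.

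**Figure D1:**
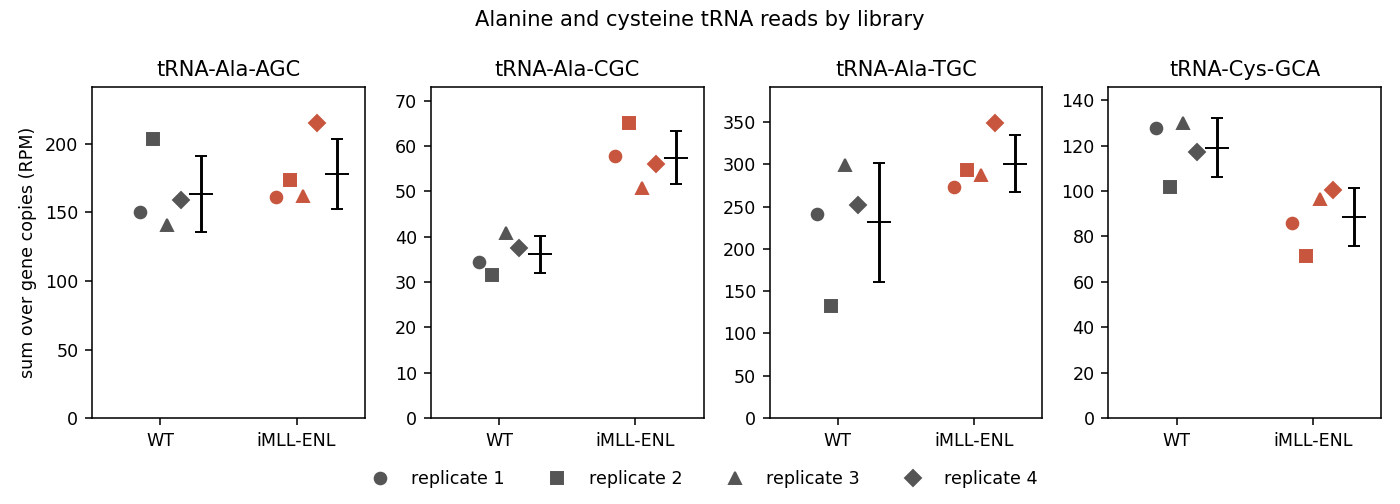
Summed reads (RPM, linear axis from 0) of each alanine and cysteine isoacceptor in the 4 WT (grey) and 4 iMLL-ENL (red) libraries. Marker shapes give the replicate number, and the bar beside each group is the mean ± SD. tRNA-Ala-CGC is at 36.1 in WT and 57.4 in iMLL-ENL with no overlap, and tRNA-Cys-GCA at 119 and 88.5.

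How far these changes depend on the scaling was checked for all 4 isoacceptors. Across the 633 tested rows the deposited scale gave a median log2 fold change of 0.31, and TMM scaling moved it to -0.08. Under TMM scaling the sums of tRNA-Ala-CGC (0.26) and tRNA-Ala-TGC (0.03) lay above that median and those of tRNA-Ala-AGC (-0.27) and tRNA-Cys-GCA (-0.83) below it. That median is over single rows that passed the filter, not over sums. With each library scaled to the sum of its rows the median was 0.59, and 49.8% of families were higher and 1.89% lower. There tRNA-Ala-TGC also passed the test at 0.72 (adjusted p = 0.014) and tRNA-Cys-GCA was at -0.14. Each of these scalings divides a library by 1 factor, which shifts all 4 fold changes by nearly the same amount. Their order, from tRNA-Cys-GCA through tRNA-Ala-AGC and tRNA-Ala-TGC to tRNA-Ala-CGC, was therefore bound to stay the same. With edgeR on the recovered whole reads, unscaled beyond the library size, tRNA-Ala-CGC was at 0.67 (adjusted p = 0.022) and tRNA-Cys-GCA at -0.43 (adjusted p = 0.09), with 21.5% of families higher and 4.53% lower.

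**Figure D2:**
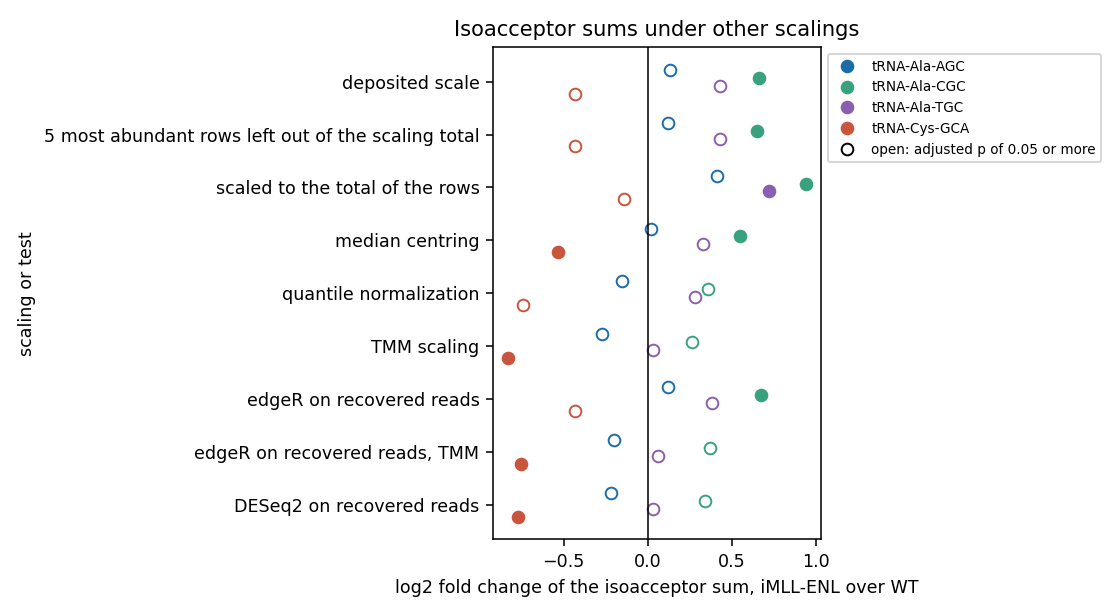
Log2 fold change of each isoacceptor sum (iMLL-ENL over WT) on the deposited scale and under other scalings and tests. Filled points passed an adjusted p of 0.05 and open points did not. tRNA-Cys-GCA stays left of 0, from -0.14 to -0.83, and tRNA-Ala-CGC right of 0, from 0.26 to 0.94, while tRNA-Ala-AGC lies on both sides.

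A ratio of sums within a library does not depend on how libraries are scaled. The ratio of cysteine to alanine tRNA reads was 0.2996, 0.276, 0.271 and 0.261 in WT replicates 1 to 4. In iMLL-ENL replicates 1 to 4 it was 0.175, 0.134, 0.192 and 0.162. All 4 iMLL-ENL libraries were lower than all 4 WT libraries, WT replicate 2 included. The difference of the mean log2 ratios (iMLL-ENL minus WT) was -0.75, a fold of 0.594, with an exact two-sided permutation p of 0.0286 over the 70 assignments of libraries, the smallest this design allows. Adjusted over the 5 ratios tested, p was 0.0714, and without WT replicate 3, where one more ratio reached the smallest exact p, it was 0.048. The difference was also -0.75 without WT replicate 2.

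Alanine and cysteine tRNAs were also set against all tRNA rows. Alanine copies held 0.1498% ± 0.030 (SD, n = 4) of the tRNA reads in WT, and 0.252% ± 0.027 (SD, n = 4) in the iMLL-ENL libraries, with no overlap and a difference of 0.77 between the mean log2 ratios (exact permutation p = 0.0286, adjusted 0.0714). That difference was 0.63 without WT replicate 2. Cysteine copies held 0.0413% ± 0.0074 and 0.0415% ± 0.0058, with overlapping groups (exact permutation p = 0.886, adjusted 0.886), and the log2 difference went from 0.02 to -0.12 without WT replicate 2. Both ratios share the sum of all tRNA rows, which had a mean of 292631 ± 35839 RPM in the WT and 213220 ± 14201 RPM in the iMLL-ENL libraries. The largest falls in mean RPM were those of tRNA-Asp-GTC (73218 to 21760), tRNA-Val-CAC (61402 to 34697) and tRNA-His-GTG (12686.5 to 2658.5). Over the 44 isoacceptors other than alanine and cysteine the median log2 fold change was 0.03, with 24 above 0. The sum is weighted to the most abundant isoacceptors, so these ratios do not compare with a typical tRNA. Set against the rows that are not tRNA (U-named RNA, snoRNA, scaRNA, Y RNA and UCSC transcripts), a pair of ratios added after the data were seen, it was the cysteine groups that did not overlap. The alanine ratio overlapped between the groups, with a log2 difference of -0.17 (exact permutation p = 0.543, adjusted over 7 ratios 0.7), while the cysteine ratio had a log2 difference of -0.92 with no overlap (exact permutation p = 0.0286, adjusted 0.0667). These differences were -0.32 and -1.07 without WT replicate 2.

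**Figure D3:**
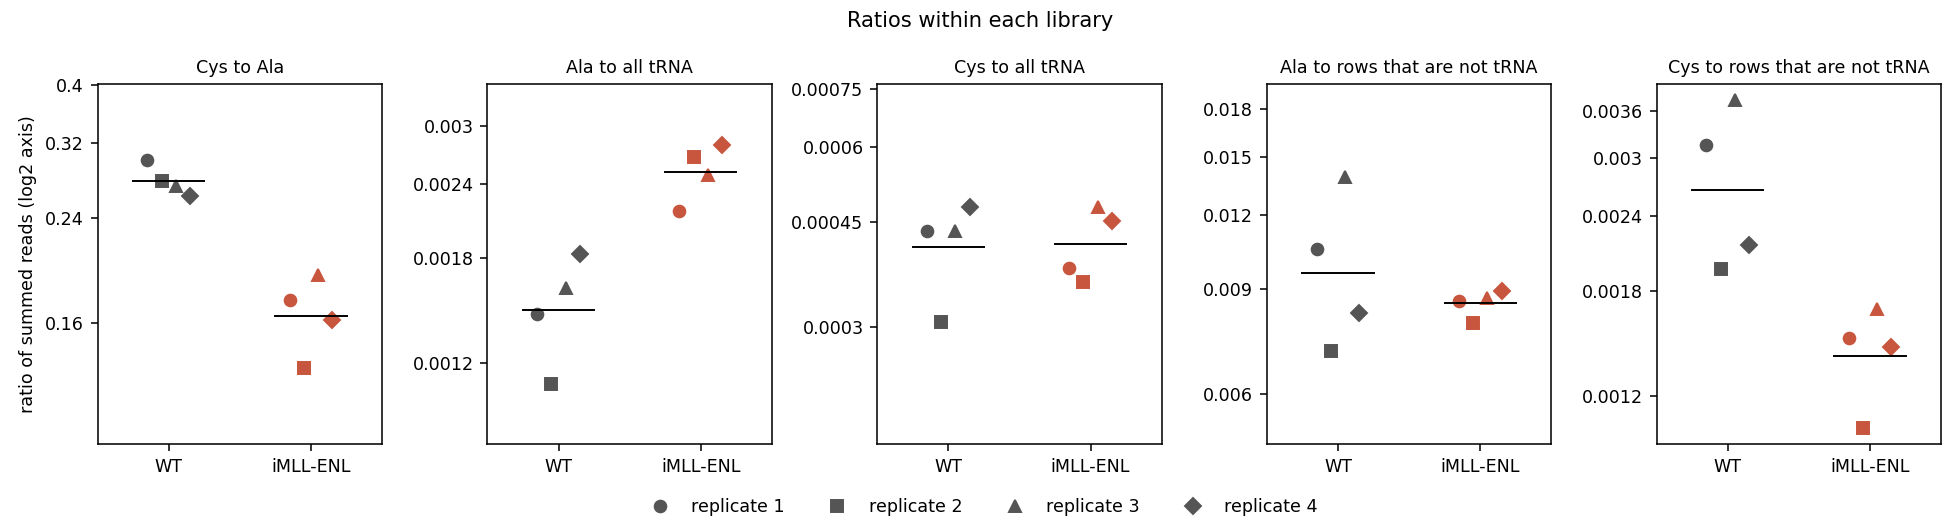
Ratios of summed reads within each library (log2 axis, each panel spanning the same fold range), with WT in grey, iMLL-ENL in red and the bar at the mean of the log2 values. The cysteine to alanine ratio is 0.261 or more in every WT library and 0.192 or less in every iMLL-ENL library.

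Among the alanine isoacceptors, the ratio of tRNA-Ala-CGC to tRNA-Ala-AGC was 0.155 to 0.29 in WT and 0.26 to 0.375 in iMLL-ENL, with overlapping groups (log2 difference 0.54, exact permutation p = 0.0571, adjusted 0.0952), and without WT replicate 2 the difference was 0.37. The ratio of tRNA-Ala-TGC to tRNA-Ala-AGC lay within 1.62 to 1.78 in iMLL-ENL. In WT it was 0.652 in replicate 2 and 1.59 to 2.12 in the others (log2 difference 0.31, exact permutation p = 0.6, adjusted 0.75), and without WT replicate 2 the difference was -0.05. Without WT replicate 3 it was 0.51 (exact permutation, adjusted p = 0.048), with WT replicate 2 still included. The highest WT library left was then at 1.61 and the lowest iMLL-ENL library at 1.62. The exact p was the smallest possible, so the pass does not measure the size of the difference.

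By copy, 15 of the 31 members passed the filter of at least 10 RPM in 4 libraries, 11 alanine and 4 cysteine copies. Of these 15, 2 rose in limma and 0 fell, against 20.4% of the 633 tested rows called higher and 8.53% called lower. Among the 263 tested tRNA rows other than alanine and cysteine, 49 were called higher and 53 lower. The filter accepts 4 libraries of 1 group. tRNA622-AlaCGC reached 10 RPM in 0 WT and 4 iMLL-ENL libraries, tRNA2022-AlaTGC and tRNA70-AlaCGC in 1 and 4 and tRNA703-AlaTGC in 2 and 4, while 3 cysteine copies that reached it in 2 WT and 0 iMLL-ENL libraries (tRNA1442-CysGCA, tRNA457-CysGCA and tRNA593-CysGCA) were left out, so these counts are a description of the rows that passed. An unadjusted p under 0.05 was found for 5 of the 15, against 43.9% of the tested rows, and edgeR on recovered reads called 3 higher and 0 lower, against 20.1% and 10.4% of the tested rows (127 and 66 of 633). DESeq2 on the same reads called 2 higher and 5 lower, against 12.9% and 22.6% of the 589 rows to which it gave an adjusted p. Without WT replicate 2 limma called 3 of the 15 higher and 2 lower, against 41.1% and 15.5%. The count of lower copies turned on the scaling, and TMM scaling gave 1 higher and 5 lower, against 5.53% and 20.4% of the tested rows.

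tRNA622-AlaCGC, a copy of tRNA-Ala-CGC, showed the largest fold change among the 15. It was at 6.58, 6.23, 6.59 and 6.45 RPM in WT replicates 1 to 4 and at 17.99, 22.2, 14.9 and 14.2 RPM in iMLL-ENL replicates 1 to 4. The WT libraries lay close together and every iMLL-ENL library was at least at 14 RPM. The means were 6.46 ± 0.17 and 17.3 ± 3.7 RPM (SD, n = 4), with 39 to 48 recovered reads in a WT library and 113 to 206 in an iMLL-ENL library. The log2 fold change was 1.27 ± 0.22 (SE, adjusted p = 0.008 in limma). This copy passed the filter only through iMLL-ENL, where it was high. It kept its call in all 24 alternatives that could test it, fits with no filter and without WT replicate 2 included, with adjusted p up to 0.04 and a log2 fold change of 0.91 after TMM scaling.

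The other 3 copies of tRNA-Ala-CGC had smaller fold changes, and the differences between copies were not tested. tRNA70-AlaCGC was at 5.2 to 10.4 RPM in WT and 10.8 to 15.3 RPM in iMLL-ENL, with no overlap, a log2 fold change of 0.76 ± 0.26 (SE) and an adjusted p of 0.053. It was called in 9 of 24 alternatives, among them the fits without WT replicate 2 (0.64, adjusted p = 0.018) or WT replicate 4 (0.93, adjusted p = 0.023) and edgeR (0.81, adjusted p = 0.044). The scarcest copy, tRNA967-AlaCGC, was at 5.33 to 7.85 RPM in WT and 9.21 to 11.5 RPM in iMLL-ENL, with no overlap (0.56 ± 0.20, adjusted p = 0.058 in limma with no filter). tRNA263-AlaCGC, the most abundant copy, was at 12.9 to 21.1 RPM in WT and 15.9 to 18.9 RPM in iMLL-ENL (0.14 ± 0.21, adjusted p = 0.65 in limma). Its share of the isoacceptor went from 43.5% ± 7.5 to 30.1% ± 3.3, and that of tRNA622-AlaCGC from 18.0% ± 1.7 to 29.96% ± 3.69.

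tRNA2022-AlaTGC rose, from 8.54, 9.22, 7.1 and 10.7 RPM in WT replicates 1 to 4 to 13.9, 19.1, 14.9 and 16.8 RPM in iMLL-ENL replicates 1 to 4. The groups did not overlap. The log2 fold change was 0.80 ± 0.22 (SE, adjusted p = 0.027 in limma), and the call ended in 9 of 24 alternatives, among them TMM scaling (0.43, adjusted p = 0.16), quantile normalization (0.54, adjusted p = 0.2) and the fits without WT replicate 1 or 3 or any 1 iMLL-ENL library. tRNA68-AlaTGC (0.74 ± 0.32, adjusted p = 0.102) and tRNA703-AlaTGC (0.54 ± 0.23, adjusted p = 0.102) had groups that did not overlap either. Without WT replicate 2, the lowest WT library for both, they were at 0.41 (adjusted p = 0.059) and 0.40 (adjusted p = 0.071). tRNA1318-AlaTGC held 75.0% ± 0.7 of the isoacceptor in WT and 69.4% ± 2.0 in iMLL-ENL. Its level was 99.4 RPM in WT replicate 2, while the other WT libraries held 182 to 227 RPM and the iMLL-ENL libraries 188 to 249 RPM (0.32 ± 0.24, adjusted p = 0.33, not called). Its log2 fold change was 0.07 without WT replicate 2.

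**Figure D4:**
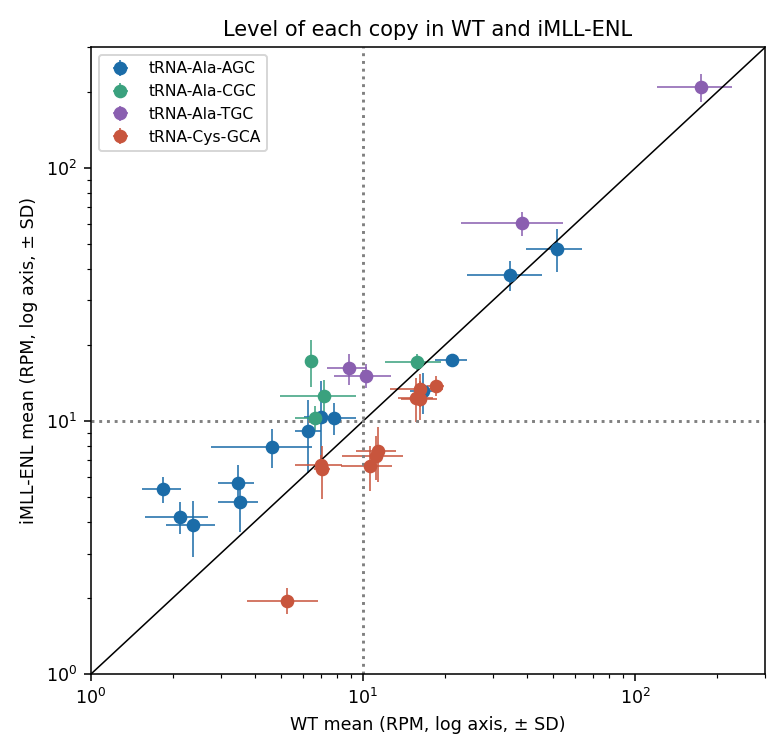
Mean level of each of the 31 copies in WT (horizontal) and iMLL-ENL (vertical), RPM on log axes, with SD over 4 libraries as bars. The solid line marks equal levels and the dotted lines 10 RPM. All 10 cysteine copies lie below the solid line, and the low alanine copies lie above it.

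Within tRNA-Ala-AGC the sums of the abundant and of the scarce copies had different ratios. The 4 copies that passed the filter summed to 124 ± 25 RPM (SD, n = 4) in WT and, in the iMLL-ENL libraries, to 116 ± 15 RPM (SD, n = 4), with overlapping groups and copy ratios from 0.792 to 1.09. The 9 copies that did not pass it summed to 39.9, 43.5, 34.2 and 38.97 RPM in WT replicates 1 to 4. In iMLL-ENL replicates 1 to 4 they summed to 55.4, 57.5, 55.5 and 78.4 RPM. These sums did not overlap, and all 9 copies had a higher mean in iMLL-ENL, with ratios from 1.32 to 2.91. Of all 964 single rows, 602 had a higher mean in iMLL-ENL, with a median ratio of 1.23, and 29.3% did not overlap in that direction. Among the 297 tRNA rows other than alanine and cysteine, 156 had a higher mean, with a median ratio of 1.07. The share of the 4 abundant copies in the isoacceptor was 75.8% in WT and 65.5% in iMLL-ENL. The split was made by the filter on level, and the difference between its sides was not tested.

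The most abundant copy, tRNA102-AlaAGC, was at 51.8 ± 12.1 and 48.1 ± 9.2 RPM, tRNA8-AlaAGC at 34.7 ± 10.6 and 37.7 ± 5.1 RPM and tRNA110-AlaAGC at 21.2 ± 2.9 and 17.5 ± 1.0 RPM in WT and iMLL-ENL (SD, n = 4). Their log2 fold changes of -0.10, 0.15 and -0.26 did not pass the test (adjusted p = 0.75, 0.62 and 0.26 in limma), and were 0.05, 0.34 and -0.25 without WT replicate 2. The scarce copy tRNA975-AlaAGC, named after its values were seen, was at 2.1, 1.43, 2.03 and 1.82 RPM in WT replicates 1 to 4 and at 4.73, 5.28, 5.23 and 6.26 RPM in iMLL-ENL replicates 1 to 4. That is 11 to 15 recovered reads in a WT library and 36 to 50 in an iMLL-ENL library. In limma with no filter on level, over all 964 rows, its log2 fold change was 1.17 ± 0.17 (SE, adjusted p = 0.0034), and in edgeR on the recovered reads of all rows, where 21.3% of rows were higher and 6.54% lower, it was 1.54 (adjusted p = 0.0033).

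With no filter all 31 copies were tested, and 5 rose and 1 fell, against 23.9% and 5.39% of all 964 rows. Of the 297 tRNA rows other than alanine and cysteine, 50 rose and 48 fell in the same fit. The 5 alanine copies that rose were tRNA622-AlaCGC, tRNA2022-AlaTGC, tRNA70-AlaCGC, tRNA975-AlaAGC and tRNA69-AlaAGC (adjusted p of 0.044 or less). Without WT replicate 2, also an alternative chosen after seeing the data, the counts were 9 and 5, against 46% and 11% of all rows. The median log2 fold change was 0.44 over the 13 tRNA-Ala-AGC copies, 0.66 over the 4 tRNA-Ala-CGC copies, 0.64 over the 4 tRNA-Ala-TGC copies and -0.39 over the 10 tRNA-Cys-GCA copies, beside 0.33 over all rows and 0.07 over the tRNA rows other than alanine and cysteine.

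**Figure D5:**
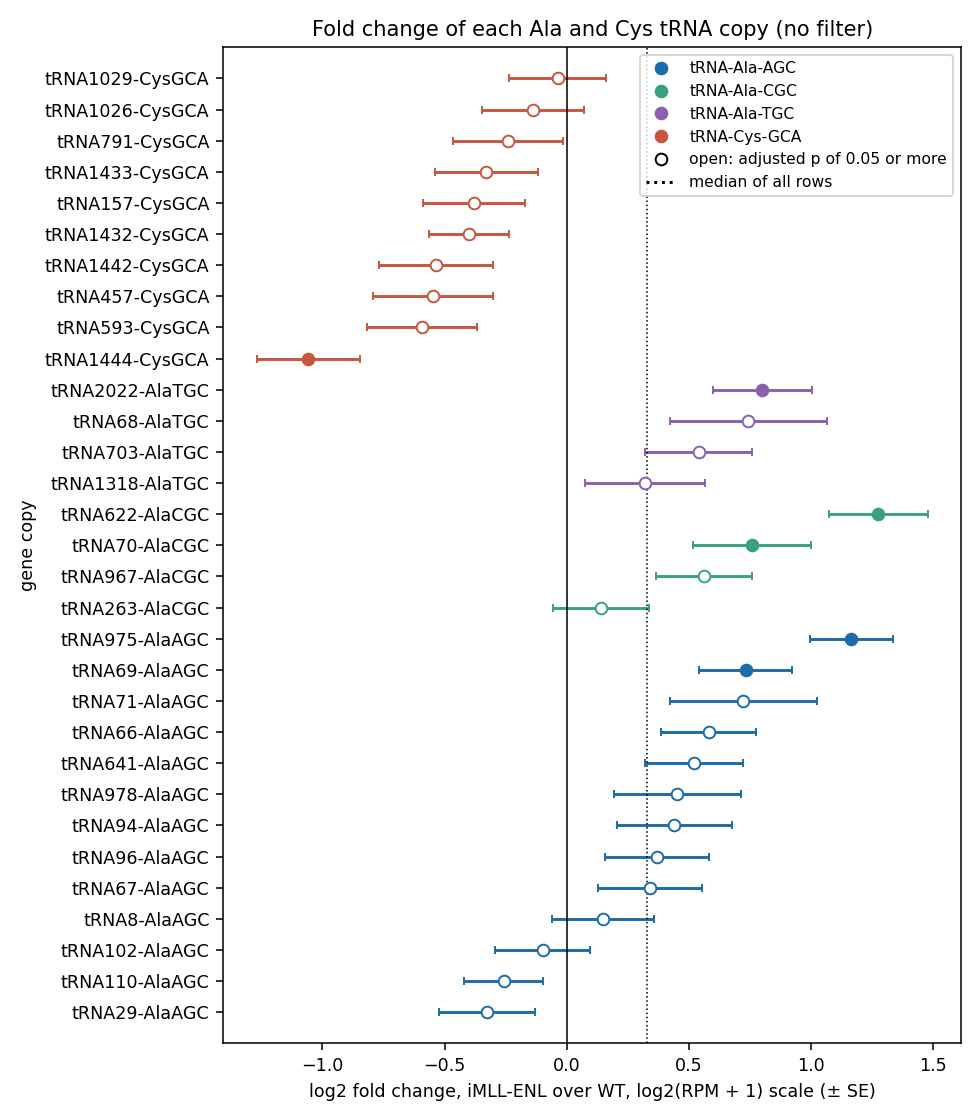
Log2 fold change ± SE of each copy (iMLL-ENL over WT, log2(RPM + 1) scale, limma with no filter). Filled points passed an adjusted p of 0.05, and the dotted line is the median of all 964 rows, 0.33. All 10 cysteine copies lie left of 0, and 18 of the 21 alanine copies lie right of it.

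Every tRNA-Cys-GCA copy had a lower mean in iMLL-ENL, with ratios from 0.37 to 0.962, as did 362 of all 964 rows and 141 of the 297 other tRNA rows. The groups did not overlap for 4 of the 10 copies, against 7.99% of all rows in this direction, and for 0 of the 10 in the other direction, against 29.3% of all rows. Among the 297 tRNA rows other than alanine and cysteine, the shares were 22.2% lower and 28.3% higher in iMLL-ENL. Among the alanine copies the groups did not overlap with iMLL-ENL higher for 5 of 13 tRNA-Ala-AGC copies, 3 of 4 tRNA-Ala-CGC copies and 3 of 4 tRNA-Ala-TGC copies, and with iMLL-ENL lower for 1, tRNA29-AlaAGC.

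The most abundant cysteine copy, tRNA1432-CysGCA, was at 19.7, 16.6, 18.6 and 19.2 RPM in WT replicates 1 to 4 and at 13.8, 12.2, 15.1 and 14.2 RPM in iMLL-ENL replicates 1 to 4. The groups did not overlap, but the log2 fold change of -0.40 ± 0.18 (SE) did not pass the test (adjusted p = 0.11 in limma). tRNA791-CysGCA (-0.24 ± 0.23, adjusted p = 0.45) and tRNA157-CysGCA (-0.38 ± 0.22, adjusted p = 0.203) had overlapping groups. Without WT replicate 2, tRNA1432-CysGCA (-0.45, adjusted p = 0.034) and tRNA157-CysGCA (-0.46, adjusted p = 0.049) passed the test and tRNA791-CysGCA was at -0.39 (adjusted p = 0.084). The copy that fell with no filter, tRNA1444-CysGCA, was named after its values were seen. It was at 3.64, 7.27, 5.58 and 4.63 RPM in WT replicates 1 to 4 and at 1.97, 1.83, 2.27 and 1.75 RPM in iMLL-ENL replicates 1 to 4, with WT replicate 2 the highest. With 14 to 56 recovered reads in a library it is the scarcest cysteine copy, and its log2 fold change was -1.06 ± 0.21 (SE, adjusted p = 0.0103 in limma with no filter) and -0.92 without WT replicate 2.

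How closely the copies of an isoacceptor followed each other was described by their correlation. Over the 8 libraries the median correlation between copies was 0.449 for tRNA-Ala-AGC, where 23 of 78 pairs were negative, 0.598 for tRNA-Ala-CGC, 0.702 for tRNA-Cys-GCA and 0.712 for tRNA-Ala-TGC. For the 33 other isoacceptors with 4 or more copies the medians ranged from 0.277 to 0.999, with a middle value of 0.866. These copies share libraries and differ in depth, so the correlations are a description. They include WT replicate 2 and were not computed without it. Near-identical copies may share reads, which was not tested and leaves the levels of single copies uncertain.

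In the authors' deposited table the same copies had FDR under 0.05 for 2 higher and 2 lower rows of the 31, against 4.56% and 11.9% of all rows. The 2 higher rows in the authors' deposited table were tRNA622-AlaCGC at a log2 fold change of 1.02 (FDR 0.043) and tRNA975-AlaAGC at 1.14 (FDR 0.049). The 2 lower rows in the authors' deposited table were tRNA1444-CysGCA at -1.83 (FDR 0.00091) and tRNA593-CysGCA at -1.07 (FDR 0.043). The median log2 fold change in the authors' deposited table was 0.16 over the 21 alanine copies and -0.81 over the 10 cysteine copies, beside -0.10 over all rows, and all 10 cysteine copies were below 0. In limma with no filter the median over all rows was 0.33. For tRNA102-AlaAGC the authors' log2 fold change was -0.52, against -0.10 in that fit. The authors' counts are thus not on the same scale as those of the fits here.

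Among 9 isoacceptors whose 5′ fragments are commonly abundant in mammalian small RNA libraries, 2 rose and 3 fell, while 4 were not called, against 23.8% and 4.53% of all families and 6 and 8 of the 44 other tRNA isoacceptors, which include these 9. The glycine isoacceptor tRNA-Gly-CCC (1.16) and tRNA-Lys-CTT (0.82) rose, and tRNA-His-GTG (-2.02), tRNA-Asp-GTC (-1.42) and tRNA-Val-CAC (-0.79) fell (log2 fold changes, adjusted p of 0.031 or less in limma). The families whose log2 levels followed each isoacceptor most closely over the 8 libraries, by Pearson correlation among 104 or 105 families with a mean of at least 100 RPM, were also listed. For tRNA-Cys-GCA they were tRNA-Val-CAC (0.876), tRNA-Leu-CAG (0.868) and tRNA-Gln-TTG (0.841). For tRNA-Ala-CGC they were Y RNA (0.939), tRNA-Gly-CCC (0.93) and tRNA-Gly-TCC (0.914). For tRNA-Ala-TGC the methionine family tRNA-Met-CAT (0.972) came first, ahead of the snoRNA family snosnR60_Z15 (0.902) and the minor spliceosome RNA U12 (0.888). For tRNA-Ala-AGC they were 3 snoRNA families, led by Snord104 (0.92). These correlations cover both groups and include WT replicate 2, and were not computed without that library.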

How the data were processed

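Small RNA libraries (QIAseq kit, per the labels' protocols) of 4 WT and 4 iMLL-ENL GMLP samples were analysed from 1 deposited table, with groups from the sample titles. The authors deposited RPM values under a TPM name: between 99.8% and 100% of a library's values were whole multiples, within 0.0055 RPM, of 1 step of 0.108 to 0.169 RPM, taken as 1 read. The smallest value was 1 step in 2 libraries and 2 to 7 steps in 6. The authors' deposited log2 fold changes, p-values and FDR, per the file headers, were used only where named. The build was GRCm38, per the submitters' processing notes. The aligner, the counting and the handling of multiple mapping were not given in the sources used here, and reads of near-identical copies may have been split.

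All rows with 10 RPM in at least 4 libraries (633 of 964) were tested with limma 3.58.1 (R 4.3.3, statmod 1.5.0) on log2(RPM + 1), which understates changes of low rows, with a trended, robust prior and Benjamini-Hochberg adjustment at 0.05. Isoacceptor sums were fitted with all 265 families, unfiltered. Ratios were tested by exact permutation (Python 3.11.15). Alternatives were other scalings, pseudocounts, filters and weights, a replicate block, leaving out each library, and edgeR 4.0.16 and DESeq2 1.42.0 on recovered reads. The limma and edgeR fits were also run on simulated reads of independent rows. These held no outlying library and no reads shared between copies, so that run does not bear on those limits. Named copies are the 3 most abundant of each isoacceptor and called copies. The members, lists and tests were chosen with earlier results of these data known. The 5′ fragment list came from general knowledge.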

Additional observations from a re-analysis of the deposited data

Results flagged for a closer look

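Of 48 groups of 4 libraries checked (the isoacceptor sums, the named copies and the ratios, each in WT and iMLL-ENL), 1 held a library far from the other 3. tRNA8-AlaAGC was at 50.4 RPM in WT replicate 2, against 27.2 to 30.7 RPM in the other WT libraries. The gap took 0.852 of the group's range, above Dixon's critical value for 4 samples, which chance exceeds in about 1 of 20 groups. Without that library the log2 fold change of this copy was 0.34 and did not pass the test.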

How the results depend on the processing

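The number of alanine and cysteine copies called higher was 2 and called lower 0. It was 1 and 5 after TMM scaling, 1 higher after quantile normalization (10.7% of all tested rows), 5 higher with libraries scaled to the sum of their rows (39.7%), 4 and 3 with weights for sample quality (50.9% and 21.3%), 5 and 1 with no filter, 0 higher with a filter at 50 RPM (25.5%), 1 and 1 in edgeR with TMM (9% and 17.5%), 5 lower in DESeq2, and, as alternatives added after seeing the data, 5 and 1 in edgeR with no filter and 9 and 5 with no filter and without WT replicate 2. Of the copies, only tRNA1318-AlaTGC and tRNA68-AlaTGC passed the filter at 50 RPM. The called copies tRNA622-AlaCGC and tRNA2022-AlaTGC were not tested there, so that count shows no lost call. Leaving out 1 library gave 1 to 3 higher and 0 to 2 lower copies, beside 7.27% to 41.1% and 2.05% to 15.5% of all tested rows. tRNA-Ala-CGC lost its call after TMM scaling (0.26) and quantile normalization (0.36), in edgeR with TMM (0.37) and in DESeq2 (0.34), and ranged from 0.60 to 0.72 without 1 library. tRNA-Ala-AGC turned to -0.27 (TMM), -0.15 (quantile), -0.20 (edgeR with TMM), -0.22 (DESeq2) and -0.08 (filtered copies only), and ranged from 0.03 to 0.24 without 1 library. tRNA-Ala-TGC passed at 0.72 with libraries scaled to the sum of their rows and ranged from 0.19 to 0.57. tRNA-Cys-GCA passed at -0.83 (TMM), -0.53 (median centring), -0.46 (sample quality weights), -0.75 (edgeR with TMM), -0.77 (DESeq2) and -0.43 (tRNA isoacceptors only), and ranged from -0.50 to -0.33 without 1 library.

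Over filtered copies and without the most abundant copies the cysteine to alanine ratio was at -0.64 and -0.90, the alanine to tRNA ratio at 0.73 and 0.91, and the tRNA-Ala-CGC to tRNA-Ala-AGC ratio at 0.76 and 0.76. Their adjusted p was 0.048 because all 3 then had the smallest exact p, so a pass here is no larger difference, and the filter kept alanine copies that were high in iMLL-ENL. Without 1 library these ranged from -0.83 to -0.65, from 0.63 to 0.87 and from 0.37 to 0.67, tRNA-Ala-TGC to tRNA-Ala-AGC from -0.05 to 0.51, cysteine to tRNA from -0.12 to 0.09, alanine to the rows that are not tRNA from -0.32 to 0.01 and cysteine to these from -1.07 to -0.76.

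Single copies that changed sign without passing the test were tRNA102-AlaAGC (0.18), tRNA110-AlaAGC (0.02) and tRNA791-CysGCA (0.03) with libraries scaled to the sum of their rows, and tRNA102-AlaAGC (0.05 with and without the filter) without WT replicate 2. tRNA1318-AlaTGC was at -0.08, tRNA263-AlaCGC at -0.24 and tRNA8-AlaAGC at -0.24 after TMM scaling, at -0.02, -0.17 and -0.17 in edgeR with TMM and at -0.05, -0.18 and -0.17 in DESeq2. tRNA263-AlaCGC was at -0.02 and tRNA8-AlaAGC at -0.05 after quantile normalization. The cause was not tested for any of these changes.

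The estimation of the quality weights stopped before its tolerance was met. Replicate numbers were not taken to pair the libraries, since same-numbered libraries correlated at 0.389, 0.286, -0.133 and 0.42 in their deviations from the group means. Of the 4 WT libraries, 3 correlated best with the iMLL-ENL library of their own number, which is a hint from the data and not from the design. With the replicate block the counts stayed at 2 and 0, against 23.9% and 6.64% of all tested rows. There tRNA-Cys-GCA passed at -0.43 (adjusted p = 0.025 in limma), but the share of families called under the block is not given here. The cysteine to alanine ratio (-0.75) and the alanine to tRNA ratio (0.77) kept their differences under the block. Their adjusted p went from 0.071 to 0.21 (exact permutation), so neither passed. Levels of 11 to 50 reads limit the precision of the scarcest copies.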
